A study of Ovis aries with 12 samples.

Results

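A set of 3 genes of ram blood was measured at a high level in some animals and at a level of few reads (1 to 33 counts a library) in others, with nothing in between: ENSOARG00020016943, ENSOARG00020023356 and ENSOARG00020003858. They are 3 of the 26478 gene identifiers in the deposited count table. They were chosen from their own values, because log2 CPM (counts per M reads after scaling the libraries) fell into separate levels more than 4.5 log2 units apart, with at least 3 rams at each level. The levels and the gaps below are therefore a description and carry no test. The table gives Ensembl identifiers without symbols, and 0 of the identifiers matched the reference gene table, so the 3 genes are reported without position, function or sequence.

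The blood donors were adult Rasa Aragonesa rams, a breed of sheep, classed by the labels as sexually active (6 rams, numbered 1 to 6) or not active (6 rams, numbered 7 to 12). All 12 rams share breed, tissue and age class, and no other treatment, kinship, batch or genotype is named. Each ram gave 1 library, so 1 value stands for 1 animal. The study compared the classes to find blood genes whose expression differs with sexual behaviour.

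Blood collected into RNA-stabilising tubes holds the transcripts of white cells together with those of immature red cells and platelets. A gene's level in such a sample follows both how many cells of each kind are present and how strongly each kind transcribes it, and in these samples fewer cells of a type and less RNA per cell cannot be told apart. Where a gene has a clear break between individuals instead of a gradual spread, the animals fall into classes for that gene, and a group mean can lie where no animal lies.

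Library totals ran from 42.7 to 72.8 M counts in 11 libraries and came to 13.7 M in active ram 1. That library also stood apart in makeup, with a score of 108 on the first principal component against -38.8 to 12.4 in the others. Several results that include it are therefore given with and without it, but the pooled rates are given only with it. Of the 26478 identifiers, 14374 passed the filter on low counts, including all 3 genes. The labelled tissue was not checked against cell type markers, which need gene symbols.

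Over the 14374 tested genes, the widest gap between neighbouring rams that left at least 3 rams on each side had a median of 0.14 log2 units. It exceeded 1 log2 unit in 313 genes (2.18%), 2 in 71 genes (0.494%) and 4.5 in 5 genes (0.0348%). The 3 genes described here had the widest gaps of all tested genes, at 6.65 log2 units in ENSOARG00020016943, 5.97 in ENSOARG00020023356 and 4.93 in ENSOARG00020003858. The other 2 genes over the limit, named after their values were seen, were ENSOARG00020002279 (gap 4.77) and ENSOARG00020008270 (gap just above the limit), whose mean log2 CPM lay below 0, at -0.38 and -0.88. Just outside the limit were ENSOARG00020025379 (gap 4.33) and ENSOARG00020022013 (gap 4.32). In those neighbours the upper level was itself wide, from 1.15 to 74.5 CPM in ENSOARG00020025379 and from 1.51 to 37.0 CPM in ENSOARG00020022013. How many genes pass the limit rests on the constant (2 counts) added before taking logs: 9 genes passed with 0.5 and 3 with 5, and all 3 genes described here were among them each time.

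**Figure D1:**
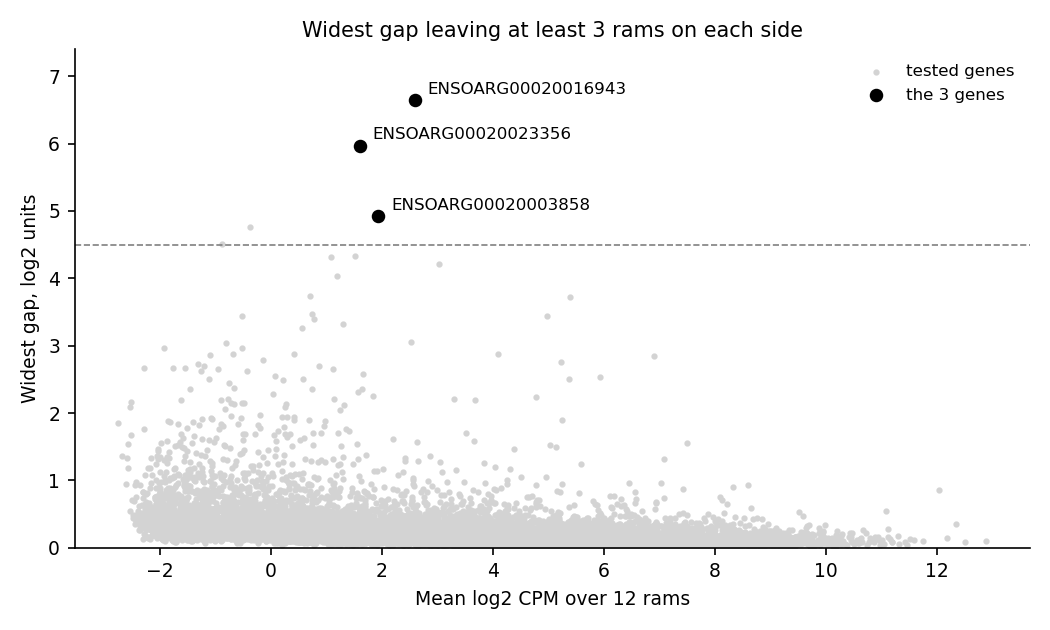
Widest gap in log2 CPM that leaves at least 3 rams on each side (vertical axis) against mean log2 CPM over 12 rams (horizontal axis), for 14374 tested genes (grey) and the 3 genes described (black); the dashed line is the limit of 4.5. The 3 genes lie highest, at 4.93 to 6.65 log2 units, where the median gene lies at 0.14.

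ENSOARG00020016943 was nearly absent in active rams 1, 3 and 6 and well expressed in the other 9 rams. In the active group the raw counts were 1 in ram 1, 2841 in ram 2, 1 in ram 3, 1141 in ram 4, 1591 in ram 5 and 3 in ram 6. In the not active group they were 1502 in ram 7, 1252 in ram 8, 1127 in ram 9, 1371 in ram 10, 880 in ram 11 and 787 in ram 12. All 3 rams without appreciable reads were thus active, and the other 3 active rams, at 19.4, 27.4 and 63.7 CPM, lay within or above the range of the not active ones (15.4 to 32.6 CPM).

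In CPM the upper level of ENSOARG00020016943 ran from 15.4 in not active ram 12 to 63.7 in active ram 2, a 4.15-fold range with a median of 21.2. Active ram 2 stood above all others, at 63.7 CPM (95% exact Poisson interval 61.4 to 66.1) against 32.6 (31.0 to 34.3) in not active ram 7, the next highest. These intervals, and all exact intervals below, cover counting error only. The SD among the 9 rams of the upper level was 0.66 on the log2 scale. For 87.6% of tested genes the SD over these same 9 rams was smaller, with a median of 0.23, so the gene also varied widely among the rams that expressed it.

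The lower level of ENSOARG00020016943 rested on 5 counts in 3 libraries together, against 12492 counts in the other 9. The pooled rate was 573 times higher in the 9 rams (95% exact interval 245 to 1764). The rams were divided at the gap in these same values. This ratio and the pooled rates given below are therefore descriptions and no test. At the lowest of the 9 upper levels, 15.4 CPM, the shallow library of active ram 1 would have held 134 counts, and it held 1. The 95% exact Poisson interval of that 1 count reached 0.637 CPM. Without active ram 1, when a level of 2 rams was allowed, the gap was 7.33 log2 units.

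ENSOARG00020023356 was nearly absent in not active rams 7, 10 and 11 and present in the remaining 9 rams. The active rams 1 to 6 had 84, 461, 709, 827, 378 and 358 counts, which is 6.51 to 14.1 CPM with a median of 9.97. The not active rams 7 to 12 had 3, 770, 588, 1, 3 and 549 counts. Here all 3 rams of the lower level belonged to the not active group, and the other 3 not active rams lay within the range of the active ones, at 10.03, 11.1 and 10.7 CPM.

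The upper level of ENSOARG00020023356 was narrower than that of ENSOARG00020016943, with a 2.16-fold range and an SD of 0.38 on the log2 scale over 9 rams. It was still wider than that of 64.4% of tested genes in the same rams (median 0.28), and than that of 74.0% without active ram 1. The lower level held 7 counts in 3 libraries, at 0.0198 to 0.0651 CPM. The pooled rate was 225 times higher in the 9 rams of the upper level (95% exact interval 109 to 560). Active ram 1, with its shallow library, had 84 counts and lay in the upper level at 9.60 CPM (7.66 to 11.9).

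ENSOARG00020003858 divided the rams evenly, 6 at each level. Its counts in active rams 1 to 6 were 169, 1506, 1687, 22, 1826 and 2097. In not active rams 7 to 12 they were 12, 30, 1939, 24, 33 and 28. The upper level therefore held 5 active rams and not active ram 9, and the lower level held active ram 4 and the other 5 not active rams.

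The lower level of ENSOARG00020003858 was low but not empty. Every one of its 6 rams had between 12 and 33 counts, or 0.261 to 0.596 CPM, with a median of 0.433. The lowest, not active ram 7 at 0.261 CPM, had an exact Poisson interval of 0.135 to 0.455, and the highest, not active ram 11 at 0.596 CPM, one of 0.410 to 0.837. The median of the lower level was 1.31% of that of the upper level, against 0.269% in ENSOARG00020016943 and 0.524% in ENSOARG00020023356. By count, then, "off" describes the lower level of ENSOARG00020016943 and ENSOARG00020023356, at 1 to 3 counts a library, and not that of ENSOARG00020003858. For active ram 1 this is not settled. The exact Poisson interval of its 1 count of ENSOARG00020016943, in a shallow library, reached 0.637 CPM.

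Among the rams of the upper level of ENSOARG00020003858, active ram 1 was lowest at 19.3 CPM (16.5 to 22.5). The other 5 lay from 31.5 to 39.9 CPM, a 1.27-fold range. The SD of all 6 rams was 0.37 on the log2 scale, with a median of 0.27 over all tested genes in the same rams and a smaller SD in 62.5% of them. Without active ram 1 it was 0.14 over 5 rams, with a median of 0.21 and a smaller SD in 30.1% of genes. The gap of 4.93 log2 units was set by active ram 1 and widened to 5.64 without it. Scaled by library totals alone, the gap was 4.22 and this gene fell below the limit of 4.5. The pooled rate was 77.9 times higher in the upper level (95% exact interval 66.3 to 92.2).

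**Figure D2:**
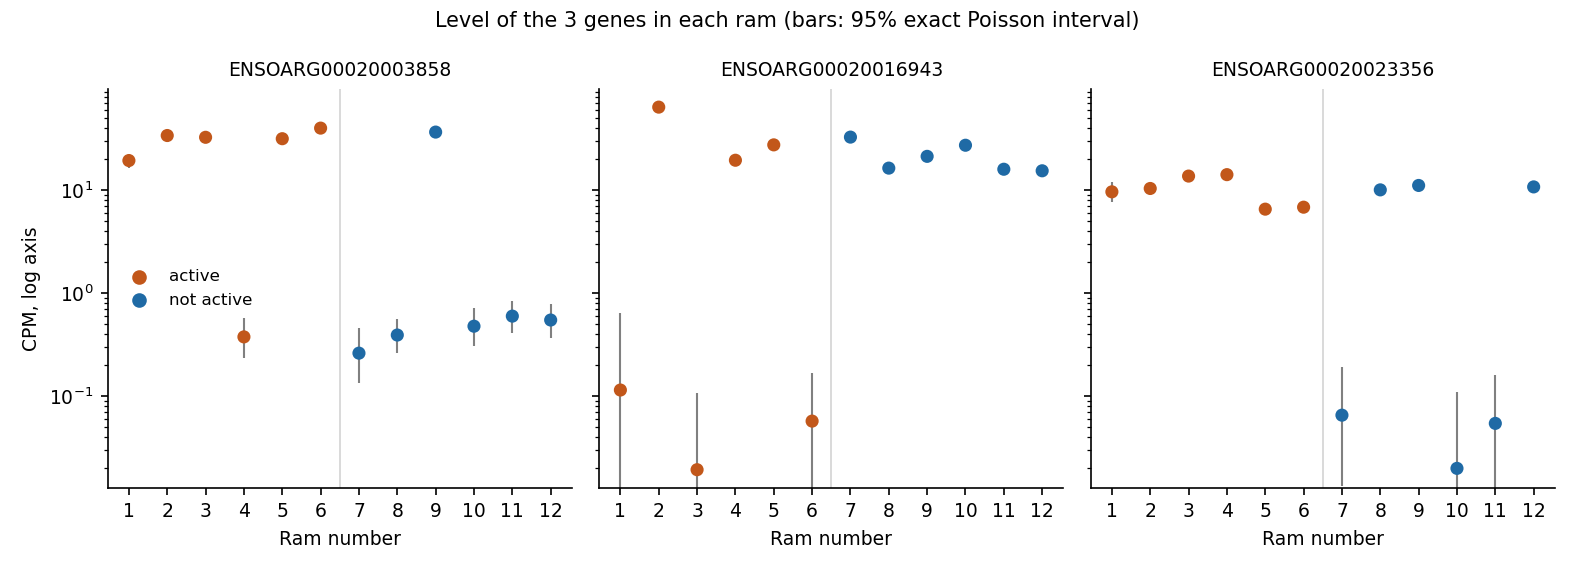
CPM (log axis) of each gene in rams 1 to 12, with active rams in orange, not active rams in blue and bars for the 95% exact Poisson interval, which covers counting error only. ENSOARG00020016943 drops to 1 to 3 counts in rams 1, 3 and 6 and ENSOARG00020023356 in rams 7, 10 and 11, while ENSOARG00020003858 keeps 12 to 33 counts in the 6 rams of its lower level.

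The 3 genes did not divide the rams alike. ENSOARG00020003858 and ENSOARG00020023356 placed 9 of 12 rams at the same level. That is little above the usual agreement. Over 312 other genes with a gap over 1 log2 unit, counted in either direction, the median was 7 rams for ENSOARG00020003858 and 8 for ENSOARG00020023356. The 3 rams low in ENSOARG00020023356 (7, 10 and 11) were all low in ENSOARG00020003858 too, and 0 rams were high in ENSOARG00020003858 but low in ENSOARG00020023356. ENSOARG00020016943 shared a level with ENSOARG00020003858 in 3 rams and with ENSOARG00020023356 in 6 rams. Counted in either direction, as in those medians, ENSOARG00020016943 and ENSOARG00020003858 thus match in 9 of 12 rams, placed oppositely. No ram was low in ENSOARG00020016943 and in either of the others. Active rams 2 and 5 and not active ram 9 were high in all 3 genes. Not active rams 7, 10 and 11 were high in ENSOARG00020016943 alone, the other 6 rams were high in 2 genes, and 0 rams were low in all 3.

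The choice of the genes used their levels but not the behaviour classes, so the comparison of active with not active rams was tested, in a model fitted to all 14374 genes. None of the 3 genes differed between the classes by edgeR's quasi-likelihood test, and over all genes this test called 0 (0%) at an adjusted p of 0.05. At an unadjusted p under 0.05 it gave 805 genes (5.6%), and 0 of the 3 were among them. DESeq2's Wald test called 13 of the 15522 genes to which it gave an adjusted p (0.0838%) and limma-voom called 0 (0%), again with 0 of the 3 among them. At an unadjusted p under 0.05 limma-voom gave 626 genes (4.36%), and 2 of the 3, ENSOARG00020023356 and ENSOARG00020016943, were among them. Their unadjusted limma-voom p were 0.0142 and 0.0345, where the exact permutation test below gave p of 0.121 and 0.167. Both genes have only 3 rams at the lower level, so these calls say little about a class difference.

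The classes overlapped in each of the 3 genes. Mean ENSOARG00020003858 was 26.2 ± 14.3 CPM for the active class and 6.46 ± 14.7 CPM for the not active class (SD, n = 6 each). The fitted log2 fold change, active minus not active, was 2.02 (SE 1.34), a 4.06-fold higher fitted level for active rams (edgeR adjusted p = 0.845). The difference in mean log2 CPM was 3.92, with an exact two-sided permutation p of 0.0649, where the smallest p that 6 rams against 6 allow is 0.0022. Without active ram 1 this difference was 3.85 (exact permutation p = 0.0649). In this gene 5 of 6 active rams were at the upper level, against 1 of 6 not active rams. Leaving out not active ram 9, the only high ram of its class, raised the fitted log2 fold change to 5.84 (edgeR adjusted p = 0.365).

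Mean ENSOARG00020016943 was 18.5 ± 25.1 CPM for the active class and 21.4 ± 7.10 CPM for the not active class (SD, n = 6 each). Its fitted log2 fold change was -0.20 (SE 1.18; edgeR adjusted p = 0.987). On the mean log2 CPM the difference was -3.55 (exact two-sided permutation p = 0.167). The fit compares mean counts, whereas the second value averages logs, where the 3 nearly empty active libraries weigh more. Without active ram 2 the fitted log2 fold change was -1.16 (adjusted p = 0.898 by edgeR). Its sign turned without active ram 1, 3 or 6, to 0.043, 0.065 and 0.061. Without active ram 1 the difference in mean log2 CPM was -2.84 (exact permutation p = 0.290). At the upper level were 3 of 6 active and 6 of 6 not active rams. With only 3 rams at the lower level, no split by class could be more uneven than this. The permutation p of this gene therefore says little about a class difference in either direction.

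Mean ENSOARG00020023356 was 10.2 ± 3.24 CPM for the active class and 5.32 ± 5.79 CPM for the not active class (SD, n = 6 each). Its fitted log2 fold change was 0.93 (SE 1.11; edgeR adjusted p = 0.900). The difference in mean log2 CPM was 3.37 (exact two-sided permutation p = 0.121). Without active ram 1 this difference was 3.38 (exact permutation p = 0.141). All 6 active rams and 3 of 6 not active rams were at the upper level. Here too the 3 low rams could not be split more unevenly by class, so the permutation p says little either way. In limma-voom, which fits the log scale, the log2 fold changes were 3.54 for this gene, 3.87 for ENSOARG00020003858 and -3.41 for ENSOARG00020016943, each with an adjusted p of 0.958.

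The spread within a class sets how little these comparisons can resolve. The standard errors of 1.34, 1.18 and 1.11 lay above those of 98.8% or more of tested genes, whose median was 0.15. Approximate 95% intervals of the log2 fold change ran from -0.61 to 4.65 in ENSOARG00020003858, from -2.52 to 2.11 in ENSOARG00020016943 and from -1.23 to 3.10 in ENSOARG00020023356. A difference of 4-fold was therefore not excluded in any of the 3 genes.

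**Figure D3:**
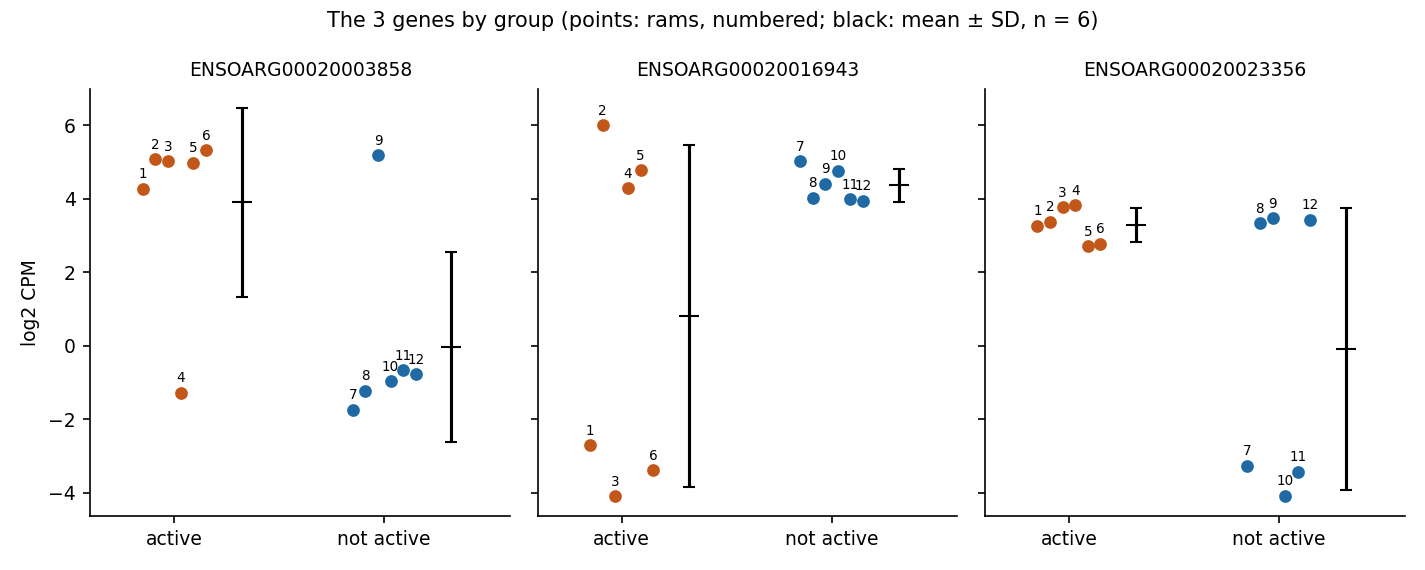
Log2 CPM of each gene in the active (orange) and not active (blue) rams, with ram numbers beside the points and mean ± SD in black (n = 6 per group). Each class that holds both levels has a mean in the empty range between them, and the classes overlap in all 3 genes.

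Other genes with the same division of the rams were looked for among the 313 genes with a gap over 1 log2 unit, each divided at its own widest gap. These 313 genes showed 198 different divisions of the 12 rams, of which 162 occurred in 1 gene each. The divisions of ENSOARG00020003858 and of ENSOARG00020016943 were among those seen once. The division of ENSOARG00020023356 occurred in 13 genes, itself included (4.15% of the 313), and was the third most frequent, after divisions found in 23 and 21 genes. How much of this sharing depends on the mix of cells or on differences between libraries was not tested.

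The genes most like ENSOARG00020003858 matched it imperfectly. ENSOARG00020010296 placed 11 of 12 rams as it did but in the opposite direction, from 3.01 to 15.9 CPM in active ram 4 and not active rams 7, 10, 11 and 12 and from 0.627 to 1.49 CPM elsewhere. Only not active ram 8 was placed differently, and the gap was narrow, 1.00 log2 unit. ENSOARG00020013309 matched in 10 rams in the same direction with a gap of 3.40, from 0.0434 to 0.235 CPM in active ram 4 and not active rams 7, 10 and 11 and from 2.85 to 8.77 CPM in the other 8, so that not active rams 8 and 12 were the exceptions. For ENSOARG00020016943 the nearest were ENSOARG00020005984 (11 rams, gap 1.13, at most 0.753 CPM) and ENSOARG00020023663 (10 rams, gap 2.36, at most 1.30 CPM). Both were weak everywhere, with ENSOARG00020005984 at 44 counts or fewer and ENSOARG00020023663 at 58 or fewer in any library.

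ENSOARG00020023356 was matched in 12 of 12 rams by 12 other genes, all in the same direction, with gaps from 1.08 to 2.88 log2 units. The widest were in ENSOARG00020003888 and ENSOARG00020003497. ENSOARG00020003888 had 0 to 4 counts in not active rams 7, 10 and 11 and 0.833 to 16.7 CPM in the other rams, and ENSOARG00020003497 had 0 to 5 counts there and 0.799 to 22.9 CPM in the others. Their upper levels were highest in active ram 4 (16.7 and 22.9 CPM) and not active ram 12 (11.4 and 17.2 CPM), and near 1 CPM in active ram 6 (1.01 and 0.799 CPM). Across the 9 rams of the upper level the 12 genes ranged by 5.78-fold to 327-fold between the highest and lowest ram, while ENSOARG00020023356 ranged by 2.16-fold. The 12 genes thus shared with it which rams were lowest, and each had a wider range among the other 9.

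**Figure D4:**
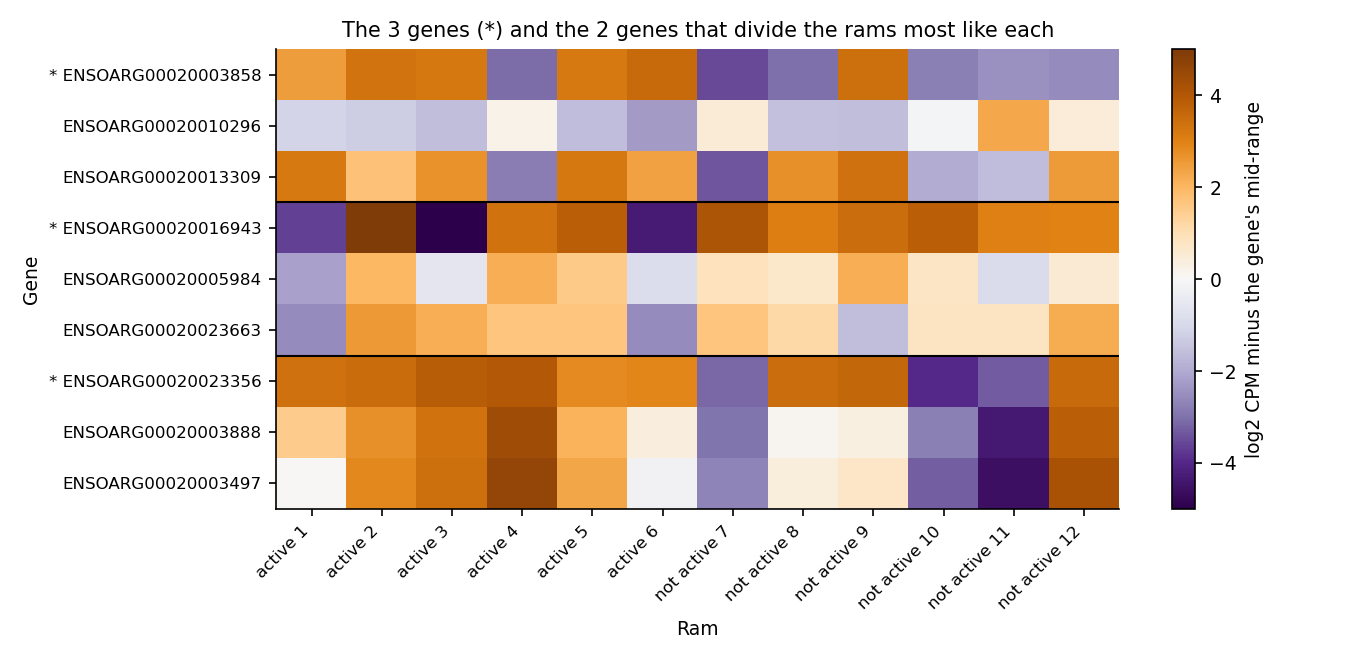
Log2 CPM minus the middle of each gene's range (orange high, purple low) in 12 rams (columns), for the 3 genes (asterisks) and the 2 genes that divide the rams most like each. ENSOARG00020003888 and ENSOARG00020003497 are lowest in rams 7, 10 and 11 as ENSOARG00020023356 is, but graded among the other 9 rams. The genes beside ENSOARG00020003858 and ENSOARG00020016943 divide the rams as these do except for 1 or 2 rams. ENSOARG00020010296 does so in the opposite direction, so its colours are reversed.

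Not active rams 7, 10 and 11 also stood at one end of a broad axis of variation. On the second principal component (20.9% of variance, computed without the 3 genes) their scores were -40.2, -41.7 and -39.6. The next lowest was not active ram 8 at -20.1, which was at the upper level of ENSOARG00020023356 with 10.03 CPM, and the remaining 8 rams lay from -7.40 to 50.4. Without active ram 1 the matching axis ranked first (31.6% of variance), and the same 3 rams lay from -42.2 to -40.2, with ram 8 at -22.8. Among the rams of the upper level, active ram 4, with a score of 50.4, had 14.1 CPM of ENSOARG00020023356, active ram 1, with 45.97, had 9.60 CPM, and active ram 5, with -7.40, had 6.51 CPM. Active ram 3 (score 33.0) had 13.6 CPM, not active ram 12 (11.5) had 10.7 and not active ram 9 (9.32) had 11.1. Active ram 6 (2.74) had 6.81 CPM and active ram 2 (-4.00) had 10.3. Leaving active ram 1 aside, the upper rams with higher scores (active rams 4 and 3, not active rams 12 and 9) had 10.7 to 14.1 CPM. Those with lower scores (active rams 6, 2 and 5, not active ram 8) had 6.51 to 10.3 CPM. On the axis computed without active ram 1, the former scored 17.1 to 61.5 and the latter -22.8 to 9.38. In these rams level was thus generally higher at higher scores on the second component, though not in strict order. This relation was not tested. The part of this axis in the lower level of ENSOARG00020023356 was not tested. The rams of the lower level of ENSOARG00020016943, active rams 1, 3 and 6, were spread along it at 45.97, 33.0 and 2.74. Those of the lower level of ENSOARG00020003858 ran from -41.7 to 50.4, with active ram 4 at the highest score of all.

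**Figure D5:**
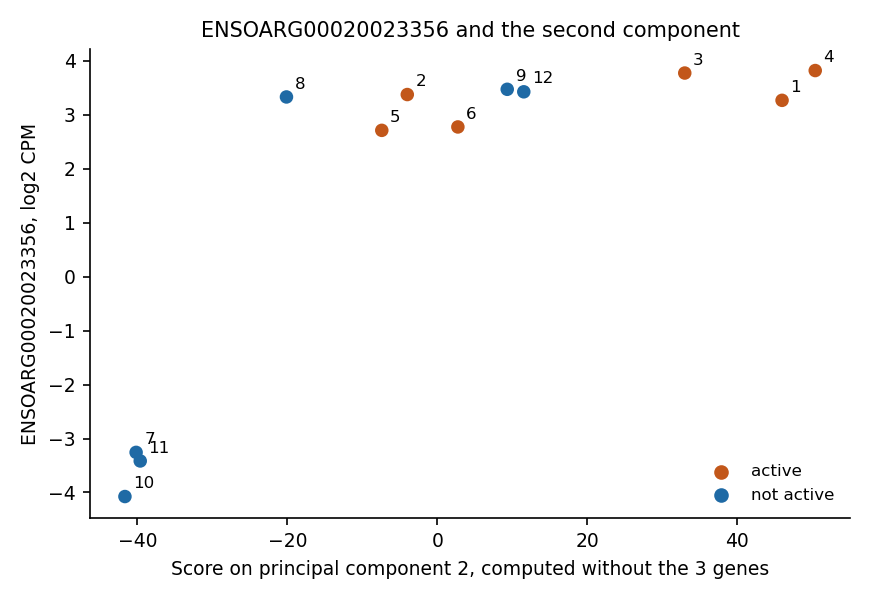
Log2 CPM of ENSOARG00020023356 (vertical) against the score on principal component 2 computed without the 3 genes (horizontal), with ram numbers and active rams in orange. Rams 7, 10 and 11 lie together at scores near -40 and low level, ram 8 lies next at -20.1 with a high level, and the 9 rams of the upper level lie between 2.71 and 3.82 log2 CPM.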

How the data were processed

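The authors deposited raw read counts per Ensembl gene identifier and library. The tools named in the submitters' processing notes are STAR 2.7.8a, HTSeq, FastQC and edgeR. For genome build, annotation, strand setting and any use of the molecular identifiers that the labels' protocols describe, the state is: not given in the sources used here. How reads of overlapping or near-identical genes were counted is therefore not known, and was not tested for the 3 genes. Columns were assigned through the bracketed code of each sample's title (0 left unmatched).

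The whole table was fitted with edgeR 4.0.16 in R 4.3.3 (filterByExpr, minimum count 10 and minimum total 15, TMM scaling, robust quasi-likelihood test, group as the only term), with Benjamini-Hochberg adjustment over 14374 genes and a threshold of 0.05. The standard error is the log2 fold change divided by the square root of F, and approximate intervals use 1.96 standard errors. CPM uses TMM factors and log2 CPM adds a prior count of 2. Exact permutation tests ran over all 924 assignments of rams, for 3 genes, unadjusted. CPM is not corrected for gene length, so levels are compared between rams, not between genes. Each of 66 library pairs was checked for duplication: the median chi-square over genes was 12.1 or more times what counting gives. Scripts were tested on simulated data.

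The 3 genes were chosen with earlier results of these data known. The rule for named genes took the 3, the 2 with the widest gaps under the limit and, for each, the 2 that divide the rams most alike (most rams placed alike in either direction, then wider gap). The counts of divisions, principal components and spread within levels were chosen after values were seen. Alternatives were other scalings, filters, prior counts, DESeq2 1.42.0, limma-voom 3.58.1 and leaving out each ram.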

Additional observations from a re-analysis of the deposited data

Results flagged for a closer look

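In ENSOARG00020003858, 1 ram of each class lay at the level that the other class mostly held. Active ram 4, at 0.375 CPM, lay below the other active rams (19.3 to 39.9 CPM) by 0.842 of the range of its class on the log2 CPM scale. Not active ram 9, at 36.5 CPM, lay above the other not active rams (0.261 to 0.596 CPM) by 0.844 of the range. Both ratios are over the limit used to pick out single rams among 6, but the gene was chosen for its wide gap, so a class split 5 to 1 across that gap had to give such a ratio. They are therefore a description and no test. The other 2 genes had no such ram, since the class that holds both levels has 3 rams at each.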

How the results depend on the processing

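The fitted log2 fold changes of ENSOARG00020003858 and ENSOARG00020023356 kept their sign, and none passed an adjusted p of 0.05, under 20 alternatives (adjusted p 0.365 to 0.997 and 0.801 to 0.997). That of ENSOARG00020016943 also never passed (0.898 to 0.9995); leaving out single rams moved it from -1.16 to 0.065, with the sign turned without active ram 1 (0.043), 3 (0.065) or 6 (0.061). The number of genes past the threshold was 13 with DESeq2 and 0 to 1 with 1 ram left out (1 without not active ram 7). The gap of ENSOARG00020003858 was 4.22 with library totals only and 4.92 to 5.64 with 1 ram left out, that of ENSOARG00020016943 6.58 to 7.33 with 1 ram left out, both widest without active ram 1, and that of ENSOARG00020023356 6.44 with a prior count of 0.5 and 5.33 with 5. With a ram left out, 2 rams per level were allowed for these gaps. Genes over the 4.5 limit numbered 9 with a prior count of 0.5, 3 with 5, 3 with library totals only, and 3 to 8 with 1 ram left out, where a level of 3 rams that loses 1 no longer counts (3 without active ram 3 or not active ram 11, 8 without not active ram 8). For the other changes the cause was not tested. No paired analysis was possible because each ram has its own number in the labels. In libraries with 1 to 3 counts, depth limits how low the lower level can be shown to be.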
